A study of Mus musculus with 16 samples.

Results

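The cytosolic ribosome of the liver was followed here through the mRNAs of its proteins. Members were the protein-coding genes whose symbol has the form of a cytosolic ribosomal protein gene (Rpl, Rps, Rplp0 to Rplp2 and Rpsa, with or without a short suffix), which leaves out the ribosomal S6 kinases. The rule found 82 of 25803 genes in the joined tables, 50 of the large subunit and 32 of the small subunit, and it used no measured value. Poly-A RNA from whole livers of male mice was sequenced in 16 libraries, 4 in each of 4 groups. All mice, controls included, had eaten a high-fat diet (HFD) for 12 weeks and had been fasted for 16 h. The groups were fasted control, fasted Cpt1a liver knockout (LKO), control refed for 6 h after the fast, and LKO refed in the same way. The series text calls the controls WT. Age, strain and the promoter that drove the deletion are not given in the sources used here. Nothing in the labels says that the libraries came from separate animals, so a p-value here measures the spread between these libraries.

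Each cytosolic ribosome holds one copy of nearly every ribosomal protein, together with the ribosomal RNAs, and the subunits are assembled in the nucleolus with the help of many factors that do not stay in the finished particle. Mammalian ribosomal protein mRNAs begin with a C followed by a run of pyrimidines, the TOP motif, through which mTORC1 and LARP1 control how strongly they are translated when nutrients and insulin change. The liver makes large amounts of secreted protein, and its protein synthesis falls in fasting and recovers with food. The RNA level, which is what these libraries measure, and the rate of translation can therefore move apart.

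The start regions of 6 members are shown first, since the pyrimidine run is the feature the family shares. Promoter entries (250 bases before to 50 after the annotated start, RefSeq, GRCm38.p6) were matched by symbol for 62 of the 82 members, and 20 had no entry. A gene with several entries was counted once, by its longest run. Runs of at least 8 bases made only of C or T on the coding strand were sought between 20 bases before and 50 bases after the annotated start. Such a run was present in 48 of 62 members (77.4%) and in 28.5% of all 27025 genes with an entry. The longest run of C or T had a median of 10 bases in members and 6 bases over all genes with an entry. Capitals mark the longest run of C or T in each window of 30 bases. Rps2 and Rpl35a are shown because they were lower in fasted LKO livers, Rpl7l1 because it was higher after refeeding, and Rps6, Rpl35 and Rps27 as members without a called difference.
Rps2 (chr17:24720083-24720112, plus strand): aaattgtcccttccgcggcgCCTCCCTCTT
Rpl35a (chr16:33056468-33056497, plus strand): cggggcttgCCTTCCTCTTTCCgccatctt
Rps6 (chr4:86857349-86857378, minus strand): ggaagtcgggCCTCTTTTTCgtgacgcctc
Rpl35 (chr2:39005115-39005144, minus strand): gccccgCCCTTTCCTCTTTCTCTCgaacca
Rps27 (chr3:90213632-90213661, minus strand): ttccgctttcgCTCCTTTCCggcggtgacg
Rpl7l1 (chr17:46782647-46782676, minus strand): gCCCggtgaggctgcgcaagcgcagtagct
The run of Rpl35 spans 18 bases and that of Rpl35a 13 bases. The run of Rps2 stretches to the end of its entry. Relative to the annotated start, the run began at base 41 in Rps2 and at base 25 in Rpl35a. It began at −1 in Rps6, −2 in Rps27, −7 in Rpl35 and −19 in Rpl7l1. The TOP motif lies at the first bases of the mRNA, so a marked run need not be that motif. The longest run of Rpl7l1 was 3 bases, the shortest among the 62 members. Annotated starts can lie some bases away from the start used in liver, so a short run says only that these letters are not in this window. The letters CCGGAAG, on either strand of any 300-base entry of a gene, were found in 41.9% of the 62 members. Over all genes with an entry the share was 9.93%. TATAAA was found in 11.3% of members and in 15.7% of all genes with an entry.

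Library totals lay between 14721601 and 24618230 counts. Cpt1a, which encodes the carnitine palmitoyltransferase of the outer mitochondrial membrane in liver, was at 378 to 556 CPM (counts per M, mega, counts of the library) in fasted control and at 86.1 to 126 CPM in fasted LKO. Refed control libraries held 319 to 620 CPM and refed LKO libraries 39.9 to 75.2 CPM. The groups did not overlap, and the log2 fold change was −2.28 (SE 0.23) fasted and −3.08 (SE 0.24) refed, with adjusted p-values of 0.000138 and 8.227e-06 (edgeR quasi-likelihood test, Benjamini-Hochberg). All 8 hepatocyte markers were present in all groups. Their sum was 69020 to 77050 CPM in fasted control and 57970 to 66260 CPM in fasted LKO, without overlap, and 66640 to 87410 CPM in refed control and 59100 to 72660 CPM in refed LKO, with overlap.

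Of the 82 members, 80 passed the filter on low counts and were tested among 14488 genes. The other two were Rpl3l and Rpl39l, paralogs known from striated muscle and from testis. Rpl3l had 0 to 8 counts per library and Rpl39l 0 to 9 counts. Tested members had a median of 2820 counts per library, so most were measured at good depth.

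Levels of single members spread widely, although the proteins are used in nearly equal numbers. Per kilobase of the deposited gene length, the level (mean over 16 libraries) had a median of 86.9 CPM per kb over the 80 tested members. Rplp1, a protein of the acidic stalk that recruits translation factors, was highest at 683 CPM per kb. It was followed by Rps2 (405 CPM per kb), which lines the mRNA entry channel, Rps3a1 (353 CPM per kb), Rps15 (325 CPM per kb) and Rpl36 (295 CPM per kb). At the low end stood Rpl13a (5.86 CPM per kb), Rpl24 (5.09 CPM per kb) and Rps10 (1.07 CPM per kb). The deposited lengths run from 383 to 6270 bases, far beyond the short mRNAs typical of this family, so the value per kb depends on which transcripts were counted as the gene.

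Several members have a close paralog in the family. Rpl7, a core protein of the large subunit, was at 118 CPM per kb, and its relative Rpl7l1, whose yeast counterpart acts in large-subunit assembly, was at 21.7 CPM per kb. Rpl22 was at 41.2 CPM per kb and Rpl22l1, which can take its place, at 8.67 CPM per kb. Rps27l was at 176 CPM per kb and Rps27 at 64.9 CPM per kb. In each of these pairs the same paralog was higher in all 4 groups. Between refed and fasted control, Rpl22 differed by −0.14 (SE 0.07) and Rpl22l1 by 0.20 (SE 0.17) on the log2 scale, with adjusted p-values of 0.202 and 0.453 (edgeR quasi-likelihood test, Benjamini-Hochberg).

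As a family, ribosomal protein mRNAs took a similar share of the counts in all 4 groups. Together the 82 genes took 1.425% ± 0.0967 of all counts in the control libraries after the fast and 1.49% ± 0.0773 after food (mean ± SD, n = 4 libraries). In LKO the share was 1.45% ± 0.164 after the fast and 1.56% ± 0.0904 after food. Single fasted control libraries were at 1.52%, 1.39%, 1.31% and 1.48% (S40 to S43), and fasted LKO libraries at 1.675%, 1.37%, 1.46% and 1.295% (S44 to S47). Refed control libraries were at 1.52%, 1.58%, 1.46% and 1.40% (S48 to S51), and refed LKO libraries at 1.45%, 1.67%, 1.54% and 1.57% (S52 to S55). The 4 ranges overlapped, and both the highest and the lowest library belonged to fasted LKO. In bulk RNA, fewer cells of a type and less RNA per cell cannot be told apart.

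**Figure D1:**
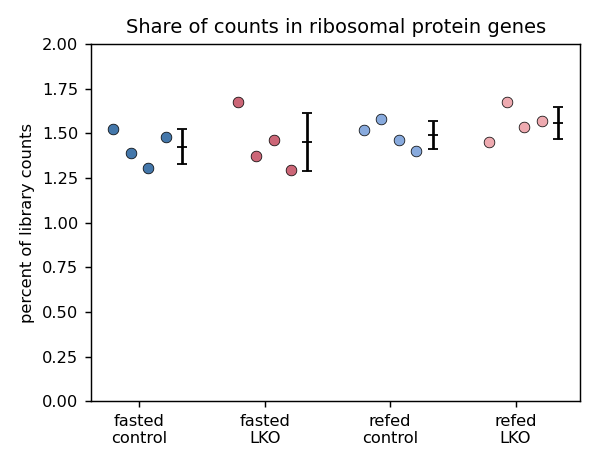
Percent of all counts in the 82 ribosomal protein genes, 1 point per library, with the group mean and SD (n = 4) at the right of each group. The ranges of the 4 groups overlap, and the group means lie between 1.425% and 1.56%.

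What differed between libraries differed for most members at once. The mean log2 deviation of the 80 tested members from their own averages ran from −0.22 in S47 (fasted LKO) to 0.23 in S53 (refed LKO), while the group means of this deviation lay between −0.04 and 0.05. Large- and small-subunit members shifted alike in these lowest and highest libraries: in S47 by −0.21 and −0.23, and in S53 by 0.23 and 0.23. They lay furthest apart in S52 (refed LKO), at 0.01 and −0.09. After group means were removed, pairs of members correlated across the 16 libraries with a median r of 0.72 (3160 pairs), from −0.73 to 0.99. These points share libraries and scaling factors, and the r is a description. The median SD of log2 CPM within groups was 0.135 for members, 0.142 for the 2330 genes at or above the 10th percentile of member levels, and 0.229 for all genes tested.

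In fasted livers, loss of Cpt1a went with lower Rps2 and Rpl35a mRNA and with little else in the family. Of 80 tested members 2 were called at an adjusted p under 0.05, against 12.2% of all genes tested, 5.75% higher and 6.48% lower (edgeR quasi-likelihood test, Benjamini-Hochberg). The median log2 fold change of members was 0.00, from −0.50 to 0.35, with 40 members above 0 and 40 below. The median over all genes was 0.02. At an unadjusted p under 0.05 there were 6 members, against 26.7% of all genes. With a smooth trend of log2 level with gene length removed from each library, 5 were called: Rps2 and Rpl35a again, and Rpl36a, Rpl37 and Rps28. Alternative fits, this one included, called 1048 to 2140 of all genes in the same contrast, against 1772 in the reported fit. The slope of log2 level, relative to each gene's mean, on log2 gene length was −0.05 to −0.022 in fasted control libraries. In fasted LKO libraries it was −0.0187 to 0.0217.

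Rps2 (chromosome 17, 24937090 to 24940903, plus strand, mm39) was at 907, 765, 792 and 838 CPM in fasted control and at 650, 639, 660 and 626 CPM in fasted LKO. The groups did not overlap, and the fasted LKO libraries lay close together (644 ± 14.5 against 825 ± 62.1 CPM, mean ± SD, n = 4). Its log2 fold change was −0.36 (SE 0.09, adjusted p = 0.0168, edgeR quasi-likelihood test). Without library S40, the highest fasted control, the value was −0.31 with an adjusted p of 0.0556 by the same test. With the length trend removed, the value was −0.27 (adjusted p = 0.028 in the same test), the smallest difference over the alternatives.

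Rpl35a (chromosome 16, 32876823 to 32880559, plus strand, mm39), a large-subunit protein needed to process ribosomal RNA and mutated in some Diamond-Blackfan anaemia, was at 111, 100.4, 97.6 and 95.8 CPM in fasted control. Fasted LKO libraries held 84.3, 85.1, 83.8 and 69.6 CPM. The groups did not overlap, and S47 was the lowest of the fasted LKO libraries. The difference was −0.33 on the log2 scale (SE 0.08, adjusted p = 0.0195, edgeR quasi-likelihood test). By the same test the adjusted p was 0.0652 without S40 and 0.0508 without S47.

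The third member whose fasted groups did not overlap was Rpl10, a large-subunit protein placed late in assembly. Non-overlap was found for 3 of 80 members, all lower in LKO, and for 16.9% of all genes tested. Rpl10 was at 425 to 476 CPM in fasted control and at 304 to 423 CPM in fasted LKO, with a log2 fold change of −0.29 (SE 0.10, adjusted p = 0.0681, edgeR quasi-likelihood test). Above 0, the members nearest the threshold were Rpl36a (0.30, SE 0.10, adjusted p = 0.0556) and Rps28 (0.33, SE 0.12, adjusted p = 0.0792) in the same test. Rpl36a ran from 42.97 to 51.8 CPM in fasted control and from 48.6 to 63.0 CPM in fasted LKO. Summed levels of 8 lymphocyte and plasma cell markers, all detected in both groups, were 15.3 to 34.1 CPM in fasted LKO and 4.80 to 7.497 CPM in fasted control. Jchain alone was at 7.89 to 27.4 CPM in fasted LKO and at 0.927 to 3.15 CPM in fasted control. Of the 6 markers tested, 6 were above 0, 2 at an unadjusted p under 0.05 and 1 called (edgeR quasi-likelihood test). Of the 8 hepatocyte markers, 7 were below 0 in the same contrast (median −0.30), 5 at an unadjusted p under 0.05 and 1 called, with the summed levels given above. The part of either marker list in these differences was not tested.

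**Figure D2:**
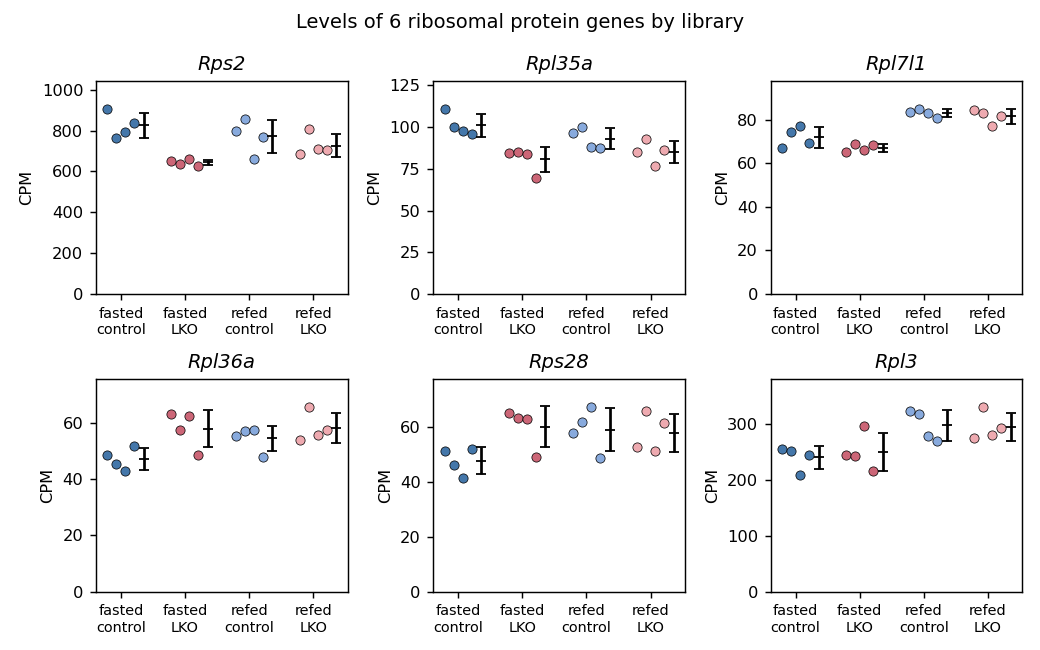
CPM of 6 ribosomal protein genes, 1 point per library, with the group mean and SD (n = 4) at the right of each group, all axes from 0. Rps2 and Rpl35a were lower in fasted LKO than in fasted control without overlap, and Rpl7l1 was higher in refed than in fasted libraries of both genotypes.

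In refed livers no member was called between LKO and control by edgeR's quasi-likelihood test, and 0 of 80 reached an unadjusted p under 0.05, against 3.63% of all genes called (2.28% higher, 1.35% lower) and 18.4% at the unadjusted p. DESeq2 and limma-voom called 0 members too. The median log2 fold change was 0.03, from −0.13 to 0.46, with 53 members above 0 and 27 below. No member was without overlap between the groups, against 11.7% of all genes. Rps2 was at 799, 858, 662 and 768 CPM in refed control and at 687, 807, 709 and 704 CPM in refed LKO, and its difference had a 95% interval of −0.28 to 0.10. Rpl35a differed by −0.13 (SE 0.08, adjusted p = 0.456, edgeR quasi-likelihood test). The largest value belonged to Rpl21 (0.46, SE 0.24, adjusted p = 0.317 in the same test), a member with abundant pseudogenes.

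The effect of the knockout was not found to differ between fasted and refed livers for any member. In the interaction test 0 of 80 members were called, against 0.538% of all genes, and 3 had an unadjusted p under 0.05, against 16.5% of all genes. The 3 were Rpl17 (0.72, SE 0.29, adjusted p = 0.216), Rps2 (0.27, SE 0.13, adjusted p = 0.298) and Rps28 (−0.36, SE 0.17, adjusted p = 0.289), all by edgeR's quasi-likelihood test. For Rps2, then, the genotype difference was called in fasted livers, and a change of that difference with refeeding was not.

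Refeeding raised 1 member, Rpl7l1, in each genotype. In control livers 1 of 80 members was called, against 15.4% of all genes, 7.79% higher and 7.65% lower (edgeR quasi-likelihood test, Benjamini-Hochberg). In LKO livers 1 of 80 was called, against 18.1% of all genes, 9.28% higher and 8.78% lower. At an unadjusted p under 0.05 there were 8 members in control (30.0% of all genes) and 6 in LKO (31.0%). These 2 comparisons share no library. The median log2 fold change was 0.05 in control (57 members above 0, 23 below, range −0.52 to 0.31) and 0.09 in LKO (66 above 0, 14 below, range −0.19 to 0.31). Over all genes the medians were 0.01 and −0.02.

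Rpl7l1 (chromosome 17, 47084833 to 47093598, minus strand, mm39) was at 66.8, 74.5, 77.2 and 69.3 CPM in fasted control and at 83.6, 85.0, 82.9 and 80.8 CPM in refed control. Fasted LKO libraries held 65.4, 69.0, 65.9 and 68.5 CPM, and refed LKO libraries 84.3, 83.1, 76.9 and 81.5 CPM. Every refed library lay above every fasted library of its genotype. On the log2 scale the rise was 0.21 (SE 0.06, adjusted p = 0.0341) in control and 0.28 (SE 0.06, adjusted p = 0.00569) in LKO, and the difference between them was 0.07 (SE 0.09, adjusted p = 0.73), by edgeR's quasi-likelihood test. As ratios these are 1.155-fold and 1.21-fold. It was called in LKO with each of the 8 libraries left out, and in control with 3 of the 8 left out in turn. Among the 62 members with a promoter entry, Rpl7l1 had the shortest pyrimidine run. A link between that run and the rise was not tested.

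Groups that did not overlap between refed and fasted were found for 5 of 80 members in control (Rpl3, Rpl13a, Rpl37 and Rpl7l1 higher, Rpl19 lower), against 20.4% of all genes, and for 2 of 80 in LKO (Rpl7l1 and Rps2), against 20.6%. Rpl3, a large-subunit protein close to the peptidyl transferase centre, was at 210 to 256 CPM in fasted control and at 269 to 324 CPM in refed control (log2 fold change 0.31, SE 0.11, adjusted p = 0.058). In LKO it was at 217 to 298 CPM fasted and 276 to 332 CPM refed (0.24, SE 0.11, adjusted p = 0.133). Rpl37 differed by 0.25 (SE 0.09, adjusted p = 0.0661) in control and by 0.09 (SE 0.09, adjusted p = 0.50) in LKO. None of these passed the threshold in the edgeR quasi-likelihood test. Members are short genes (median 1775.5 bases against 2861 over all genes), and the slope of log2 level, relative to each gene's mean, on log2 gene length was −0.05 to −0.022 per doubling in fasted control libraries and −0.00043 to 0.0522 in refed control libraries. With the length trend removed from each library, 8 members were called in control: Rpl3, Rpl7l1, Rpl26, Rpl36a, Rpl37, Rpl39, Rps21 and Rps28. Alternative fits, this one included, called 1220 to 2585 of all genes in the same contrast, against 2238 in the reported fit.

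**Figure D3:**
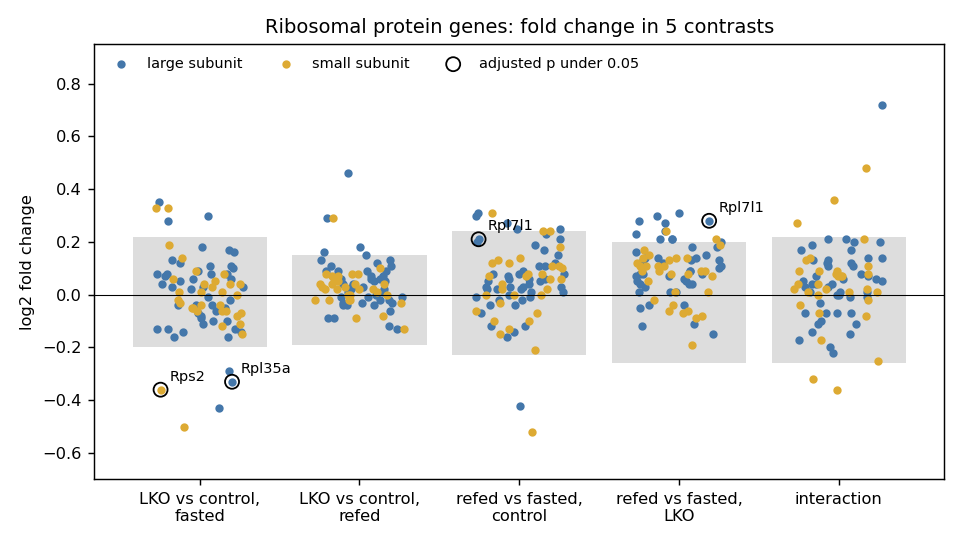
Log2 fold change of the 80 tested ribosomal protein genes in 5 contrasts, 1 point per gene, with horizontal scatter only to separate points. Grey boxes span the quartiles of all 14488 genes tested, and open circles mark the called members: Rps2 and Rpl35a in fasted LKO against control, and Rpl7l1 in both refeeding contrasts.

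The intervals of most members were narrow. A 95% interval lying wholly within 1.5-fold either way was found for 73 of 80 members in fasted LKO against control (49.58% of all genes) and for 74 of 80 in refed LKO against control (54.18%). In refeeding it was found for 75 of 80 in control (46.05%) and 73 of 80 in LKO (46.10%), and for the interaction for 70 of 80 (33.72%). Well-counted genes have narrower intervals in general: among the 2330 genes at or above the 10th percentile of member levels the share was 68.7% for the fasted genotype contrast, and 27.25% of them were called there.

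The stalk proteins, the proteins of the 5S particle and Rps6 were picked for their roles after their values were seen, and none of these 6 was called. For the stalk proteins Rplp0, Rplp1 and Rplp2, the log2 fold change of LKO against control in fasted livers was −0.14, −0.14 and 0.08, with SEs of 0.09, 0.11 and 0.11. Refeeding of control gave −0.04, 0.02 and −0.01 for the same genes. Rpl5 and Rpl11, which with 5S ribosomal RNA form the particle that can bind MDM2, differed by 0.13 (SE 0.10) and 0.04 (SE 0.09) in fasted LKO against control. After refeeding of control they differed by 0.09 (SE 0.10) and 0.06 (SE 0.09). Rps6, the protein that S6 kinases phosphorylate after feeding, was at 314 to 354 CPM in fasted control and at 311 to 355 CPM in refed control (log2 fold change 0.00, SE 0.08).

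Several members could not be told cleanly from near-identical copies elsewhere in the genome. Ribosomal protein mRNAs have left many processed pseudogenes and retrogenes in the mouse genome, and 54 members had at least 1 relative named after them in the tables, 169 in all. Relatives held at least 10% of the summed counts for 16 members and over 50% for 3. These 3 were Rps10 (94.5%), Rpl17 (73.1%) and Rpl21 (50.3%). Rps10 was at 2.47 CPM and its 3 relatives together at 42.1 CPM, so its low level above is uncertain. Rpl13a was at 12.4 CPM with 1 named relative at 0.00705 CPM, and Rpl24 at 5.24 CPM with 0 named relatives. Copies under other names were not searched for, and their part in the low levels of Rpl13a and Rpl24 was not tested.

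Rps27, a zinc finger protein of the small subunit, and its retrogene Rps27rt mirrored each other in the refed libraries. Rps27 was at 86.8, 72.8, 56.3 and 30.1 CPM in the refed control libraries S48 to S51, while Rps27rt was at 22.8, 27.2, 52.2 and 66.9 CPM. In refed LKO Rps27 was at 33.6, 91.4, 60.2 and 72.7 CPM and Rps27rt at 61.9, 22.8, 36.3 and 24.7 CPM. Within each refed group, the libraries low in the one were high in the other. In fasted LKO this did not hold for S47. That library had the lowest Rps27 (66.8 CPM) and the lowest sum (87.7 CPM) of its group. The SD of log2 CPM within groups was 0.465 for Rps27 alone and 0.126 for the sum. For Rpl17 it was 0.33 alone and 0.10 summed with its 6 relatives, and its interaction value of 0.72 became 0.03 (adjusted p = 0.93, edgeR quasi-likelihood test). Rps27a, a fusion of ubiquitin and a small-subunit protein, had the highest spread of all members at 0.56, and its sum still had 0.47. Over all tested members the median SD was 0.135 as counted and 0.133 summed.

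**Figure D4:**
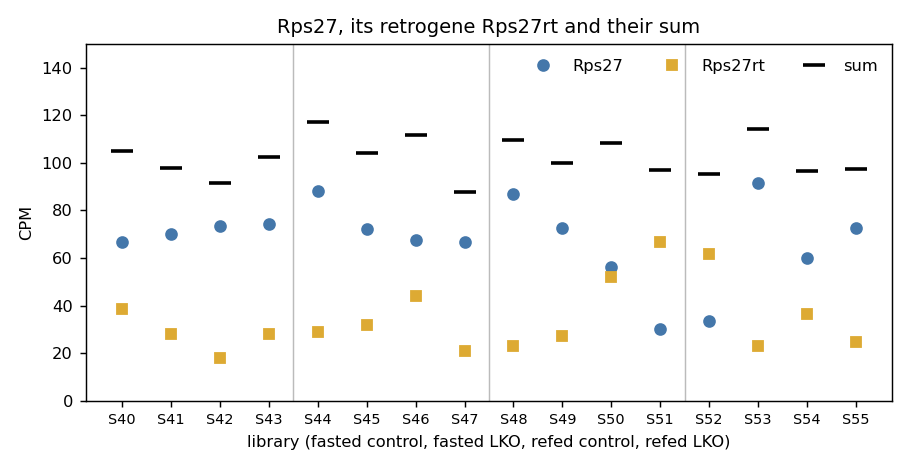
CPM of Rps27, of its retrogene Rps27rt and of their sum in each of the 16 libraries, with vertical lines between groups. In S51 and S52 Rps27 is lowest (30.1 and 33.6 CPM) and Rps27rt high (66.9 and 61.9 CPM), and the sum varies less than either gene.

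Summing members with their named relatives, an alternative chosen after the data were seen, gave 3 called members in fasted LKO against control. Rps2 (−0.37, adjusted p = 0.0141) and Rpl35a (−0.30, adjusted p = 0.0289) were among them in edgeR's quasi-likelihood test. Rpl7l1 has no named relative, so its counts are the same in both. Rpl36a, which sits near the exit site of the large subunit, was the third (0.34, adjusted p = 0.0278 in the same test). Alternative fits, this one included, called 1048 to 2140 of all genes in this contrast, against 1772 in the reported fit.

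Of the ribosomal protein genes outside the name rule, Rpl36al was called lower in fasted LKO than in fasted control, and Fau, Rack1 and Rps27rt were not called. Rpl36al is an intronless relative of Rpl36a and was at 0.993, 1.23, 1.83 and 1.24 CPM in fasted control and at 0.2995, 0.509, 0.504 and 0.497 CPM in fasted LKO. The groups did not overlap, at counts of only 6 to 34 per library over the study. The genotype difference was −1.53 on the log2 scale (SE 0.27, adjusted p = 0.00179), and refeeding raised it in LKO by 1.20 (SE 0.27, adjusted p = 0.00543), both by edgeR's quasi-likelihood test.

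Refeeding changed many genes that build ribosomes, in the same contrasts in which 1 of 80 members was called. That member was Rpl7l1, whose yeast counterpart itself acts in large-subunit assembly. Of 38 ribosome biogenesis factors, refeeding raised 13 and lowered 2 in control, and raised 16 and lowered 1 in LKO (adjusted p under 0.05, edgeR quasi-likelihood test, Benjamini-Hochberg). These are 39.5% and 44.7% of the list, against 15.4% and 18.1% of all genes. Their median log2 fold change was 0.20 in control and 0.31 in LKO. Nop56, a core protein of the box C/D particles that methylate ribosomal RNA, was at 13.8 to 15.2 CPM in fasted control and 21.8 to 24.3 CPM in refed control. It rose by 0.65 (SE 0.10, adjusted p = 0.000951) in control and 0.70 (SE 0.10, adjusted p = 0.000238) in LKO. Its partner Nop58 rose by 0.54 and 0.67, Nolc1 by 0.61 and 0.75, and the processome protein Utp20 by 0.77 and 0.63. Ubtf, which activates ribosomal RNA transcription by RNA polymerase I, fell by 0.46 and by 0.81. Between LKO and control 2 of the 38 were called higher in fasted livers (Ncl and Rrn3) and 1 in refed livers (Nhp2). These shares of 5.26% and 2.63% were below the 12.2% and 3.63% of all genes called. With each of the 8 libraries left out in turn, Ncl was called 2 times, Rrn3 3 times and Nhp2 3 times. The summed level of 7 proliferation markers, all detected, was 55.1 to 151 CPM in refed LKO, 23.0 to 27.9 CPM in fasted LKO and 20.6 to 30.5 CPM in refed control. In refed LKO, Mcm5 was at 17.1 to 48.25 CPM, Mcm6 at 11.9 to 49.9 CPM and Pcna at 19.5 to 38.5 CPM. Mki67 was at 0.865 to 1.64 CPM in refed LKO and at 0.673 to 2.24 CPM in fasted LKO. Of the 6 markers tested, 5 were called higher after refeeding of LKO and 1 was below 0. The part of these markers in the LKO values was not tested.

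Initiation factors also changed, in both directions. Of 28 factors without a TOP label, refeeding raised 9 and lowered 3 in control, and raised 7 and lowered 3 in LKO, 42.9% and 35.7% of the list against the same shares of all genes. Eif2b3, a subunit of the exchange factor for eIF2, rose by 0.83 (SE 0.13) and 0.80 (SE 0.13), and the cap-binding protein Eif4e by 0.42 (SE 0.08) and 0.41 (SE 0.08). Eif1, which monitors start codon choice, fell by 0.35 and 0.52. In fasted LKO against control 3 were called higher (Eif5, Eif4a2 and Eif4g2) and 1 lower (Eif5b), 14.3% of the list against 12.2% of all genes. With each of the 8 libraries left out in turn, Eif4a2 was called 2 times and Eif4g2 4 times, and Eif5 and Eif5b 8 times each. Of the 28 factors 0 were called between the refed groups, where 5 of 28 had an unadjusted p under 0.05, DESeq2 called 1 and limma-voom 0.

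Other mRNAs known to carry a TOP motif were called about as often as genes in general after refeeding. Of 19 elongation factors and other TOP mRNAs, refeeding lowered 3 and raised 0 in each genotype (15.8%, near the 15.4% and 18.1% of all genes called), with a median of −0.11 in control and −0.06 in LKO. Eef2, the translocation factor, was at 2374 to 2704 CPM in fasted control and 1602 to 1931 CPM in refed control, without overlap. It fell by 0.54 (SE 0.10, adjusted p = 0.00232) in control and by 0.40 (SE 0.10, adjusted p = 0.01) in LKO, by edgeR's quasi-likelihood test. Eif4b fell by 0.60 and 0.75. The third was Eif3f in control (−0.29), not called with any 1 of the 8 libraries left out, and the poly-A binding protein Pabpc1 in LKO (−0.54). Among 26 genes of the mTORC1 pathway, 5 were called in each refeeding contrast, 1 higher and 4 lower, a share of 19.2% that is near that of all genes. Eif4ebp2, a translational repressor, fell by 0.53 in control and 0.49 in LKO.

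The proteins of the mitochondrial ribosome, which translates the few mRNAs of mitochondrial DNA, are set beside those of the cytosol without a test between the lists. Of 77 mitochondrial ribosomal protein genes, refeeding raised 26 and lowered 0 in LKO (median 0.19), and raised 5 and lowered 4 in control (median −0.01). The share called in LKO was 33.8%, against 18.1% of all genes, and in control 11.7%, against 15.4%. In fasted LKO against control 7 were lower and 0 higher (9.09%, against 12.2% of all genes, median −0.06), and in refed LKO against control 3 were higher and 0 lower (3.90%, against 3.63%, median 0.15). In the interaction 1 of the 77 was called (1.30%, against 0.538% of all genes), and 0 to 4 with a library left out. There 73 of the 77 were above 0, with a median of 0.21 against −0.01 over all genes. At an unadjusted p under 0.05 there were 28 of the 77, against 16.5% of all genes (edgeR quasi-likelihood test). Of 73 respiratory chain subunits, 11 were lower in fasted LKO than in fasted control, 11 were lower in refed than in fasted control (15.1% in each, against 12.2% and 15.4% of all genes), and 0 were called in the other 2 group contrasts, where 3 had an unadjusted p under 0.05 in each and DESeq2 and limma-voom called 0. Single libraries moved these counts: without S53, 16 mitochondrial ribosomal proteins were called after refeeding of LKO in place of 26, and the respiratory chain counts fell to 3 without S40 in fasted livers and to 1 without S43 or S50 in control. The 79 tested pseudogenes of ribosomal protein genes held 4 and 0 called genes between genotypes in fasted and refed livers, and 3 and 2 between feeding states in control and LKO.

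**Figure D5:**
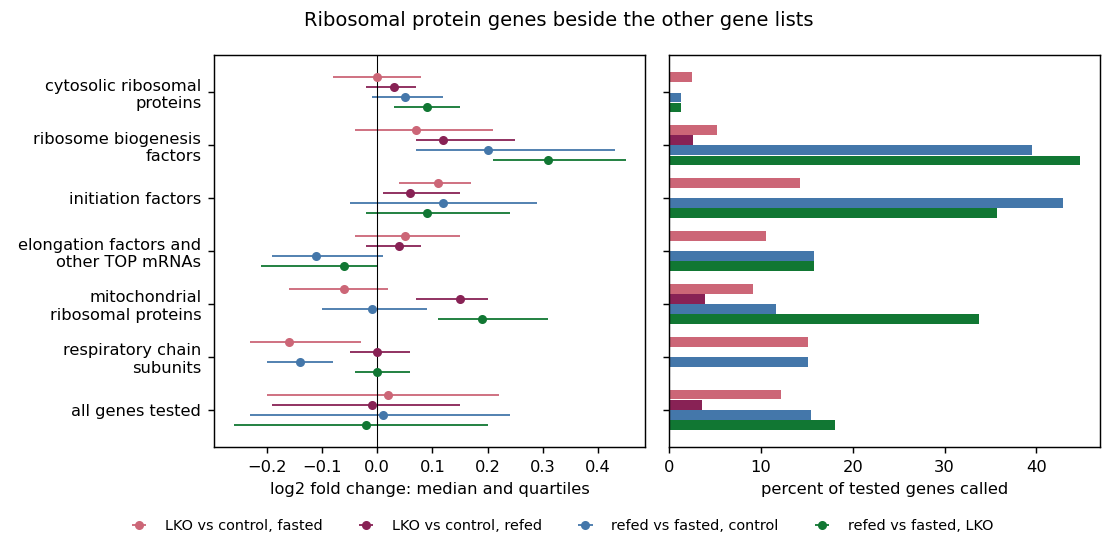
Left, median and quartiles of the log2 fold change of 6 gene lists and of all genes tested in 4 contrasts. Right, percent of the tested genes of each list called at an adjusted p under 0.05: at most 2.50% for cytosolic ribosomal proteins, and 39.5% and 44.7% for ribosome biogenesis factors after refeeding.

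In the authors' deposited tables, 2 of 82 members had an adjusted p-value under 0.05 between fasted LKO and control, both higher in control, and 0 between refed LKO and control. Of all genes listed, 1808 of 23994 and 954 of 23656 were under 0.05 in these comparisons. The authors' deposited tables held 1 such member for refeeding in control and 1 in LKO, both higher in the refed group. Of all genes listed there, 2387 of 23590 and 2357 of 23984 were under 0.05.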

How the data were processed

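Libraries were made from poly-A RNA with random hexamers and dUTP, per the labels' protocols. HISAT2 2.0.5 and the build mm39 are named per the submitters' processing notes. The counting tool, its use of strand and of reads with several matches, and the annotation are not given in the sources used here. Raw read counts, which are whole numbers, were deposited by the authors in 4 tables of 8 libraries each. The deposited tables also hold the authors' log2 fold changes, first-named group over second, the authors' adjusted p-values, and gene lengths in bases. Count columns S40 to S55 carry no replicate number and took their group from the headings of the tables. Joining the 4 tables by identifier gave 25803 genes, with 0 counts that differed between tables. Another 64 columns with values of single libraries were left out. A gene not listed for a library was set to 0 there, which touched 0 members.

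The counts were tested with edgeR 4.0.16 under R 4.3.3. The 14488 genes passing filterByExpr were scaled by TMM factors (0.941 to 1.07), and glmQLFit was run over all 16 libraries with a single factor of 4 groups. Quasi-likelihood tests compared the genotypes within each feeding state, the feeding states within each genotype, and the genotype effects of both states (the interaction), with Benjamini-Hochberg adjustment over all genes tested and a threshold of 0.05. The common biological coefficient of variation was 0.185. CPM are counts per M (mega) counts of the TMM-scaled total, and log2 CPM used a prior count of 2. An SE is the log2 fold change divided by the square root of F. The scripts were tested on simulated data. Any member could be named by the rule in use. Those in full are the called members, the 5 with the highest CPM per kb, members with a named paralog and those with the largest spread within groups, and other members were named after their values were seen. Members and lists were chosen with earlier results of these data known, so no test was made over the family or over a list. Alternatives were RLE and upper quartile factors, TMM without the members, other filters, DESeq2 1.42.0, voom in limma 3.58.1, removal of the trend with gene length, a fit of only the groups compared, and each library left out. An exact permutation test (two-sided) of Cpt1a gave 0.0286 in each state, the smallest p that 4 against 4 allows. Start regions are RefSeq entries of GRCm38.p6, another build than that of the counts, and were matched by symbol. Results for 1 gene of the comparison lists were left out, and other genes of those lists are reported.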

Additional observations from a re-analysis of the deposited data

Results flagged for a closer look

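In 96 groups of 4 libraries (24 genes named in the report), 5 held a library standing apart from the other 3 by more than Dixon's 95% critical value. Chance alone flags about 1 in 20 groups. In fasted LKO, Rpl35a was at 69.6 CPM in S47 against 83.8 to 85.1 CPM in the others, and Rps28 at 48.9 CPM in S47 against 63.0 to 65.0 CPM. S47 had the lowest share of counts in ribosomal proteins of all libraries. Also in fasted LKO, Rps27a was at 151.5 CPM in S44 against 47.4 to 64.6 CPM, and Rpl36al at 0.2995 CPM in S44 against 0.497 to 0.509 CPM. In refed control, Rps27a was at 127.6 CPM in S49 against 57.0 to 66.5 CPM.

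Among the pathway genes named with the members, 2 had a genotype effect that differed between fasted and refed livers by the interaction test. For Eif5b, a factor that joins the ribosomal subunits, the difference was 0.87 (SE 0.12, adjusted p = 0.0122, edgeR quasi-likelihood test). It was at 56.8 to 62.4 CPM in fasted control, 35.4 to 45.6 CPM in fasted LKO, 35.01 to 43.3 CPM in refed control and 46.4 to 52.2 CPM in refed LKO. For Castor1, the arginine sensor of mTORC1, the difference was 1.91 (SE 0.25, adjusted p = 0.0122 in the same test), at 4.32 to 5.62, 1.68 to 2.55, 1.47 to 1.85 and 1.83 to 2.60 CPM in the same order of groups.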

How the results depend on the processing

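Over the alternatives the median log2 fold change of members ran from −0.06 to 0.06 for fasted LKO against control, −0.03 to 0.07 for refed LKO against control, 0.01 to 0.12 and 0.03 to 0.15 for refeeding of control and LKO, and −0.03 to 0.10 for the interaction. Cpt1a was called under every alternative run, and no called value named here changed direction. Called members in fasted LKO against control numbered 2 in the reported fit, 4 with DESeq2, 5 with the trend with gene length removed, 1 with only the groups compared, and 0 to 3 with a library left out (0 without S40). Called members after refeeding of control numbered 1 in the reported fit, 2 with DESeq2, 8 with the length trend removed, 2 with a mean of at least 5 CPM, 0 without a filter, 0 with only the groups compared, and 0 to 4 with a library left out: 0 without S40, S43, S48, S49 or S50, and 4 without S51. After refeeding of LKO they numbered 1 in the reported fit and 1 to 3 with a library left out. In refed LKO against control and in the interaction the count was 0 under every alternative run. All genes called under the alternatives numbered 1048 to 2140 in fasted LKO against control and 197 to 924 in refed LKO against control. They numbered 1220 to 2585 and 1795 to 2896 after refeeding of control and LKO, and 8 to 458 in the interaction. With the 10 most abundant genes out of the denominator, the ribosomal protein share was 1.749%, 1.759%, 1.825% and 1.894% in fasted control, fasted LKO, refed control and refed LKO. The causes were not tested. Counts of calls in the comparison lists, followed after the data were seen, are given for each library left out as ranges: 10 to 15 and 11 to 16 biogenesis factors after refeeding of control and LKO, 0 to 2 between genotypes in either state, 8 to 12 and 6 to 9 initiation factors after refeeding and 2 to 5 in fasted LKO against control, 2 to 3 and 3 to 5 elongation factors and other TOP mRNAs after refeeding, 16 to 25 and 3 to 8 mitochondrial ribosomal proteins after refeeding of LKO and control, 7 to 10 and 0 to 3 between genotypes in fasted and refed livers, and 3 to 11 and 1 to 10 respiratory chain subunits in fasted LKO against control and after refeeding of control. No paired analysis was possible because the columns carry no replicate number. Depth limited Rpl3l, Rpl39l, Rps10 and Rpl36al, and reads shared with pseudogenes limit the members named with them.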
